A study of Mus musculus with 24 samples.

Results

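The Hoxa, Hoxb4, Meis1 and Pbx3 genes were followed in Lin-Sca-1+c-Kit+ cells (LSKs), the bone marrow fraction that holds hematopoietic stem cells (HSCs) and early multipotent progenitors. The 8 genes were taken by symbol, namely Hoxa3, Hoxa5, Hoxa7, Hoxa9, Hoxa10, Hoxb4, Meis1 and Pbx3, and they are 8 of the 24091 genes in the table and 8 of the 13520 genes tested. Bulk RNA-seq covered 24 mice in 4 groups of 6, with the sexes balanced at 3 of each. WT mice were miR-142+/+ and miR-142 KO mice were miR-142-/-, both without BCR-ABL. CP CML mice were miR-142+/+ BCR-ABL and modelled the chronic phase of chronic myeloid leukemia, and BC CML mice were miR-142-/- BCR-ABL and modelled blast crisis. In the CML groups BCR-ABL was a tet-off transgene driven from the SCL promoter, LSKs were taken 2 weeks after its induction, and the mice had been matched by the study for age, gender and transgene levels. The study's methods give a smaller number of mice per group than the 6 found here.

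Hox genes encode homeodomain transcription factors that lie in clusters and are used along the body axis and again in blood stem cells, where the HoxA genes around Hoxa9 and Hoxa10 and the HoxB gene Hoxb4 support self-renewal. Meis1 and Pbx3 encode homeodomain proteins of the TALE class, which bind DNA together with Hox proteins and sharpen their choice of sites. Hoxa9 with Meis1 is a well known pair in acute leukemia, and both are usually high in stem cells and switched off as cells mature.

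Total counts per library were 16267965 to 24687077, and 15312 to 16109 genes had at least 1 count. The targeted gene Mir142 had 94 to 127 counts in WT and 68 to 153 counts in CP CML libraries and 0 counts in every miR-142 KO and BC CML library, so all libraries matched the miR-142 part of their labels. BCR-ABL was not checked here. A count of 0 allows up to 3 counts, for counting error only. The 6 genes of the sort gate list were detected in all groups, with summed levels of 2154 to 3854 CPM (counts scaled to a library total of 1000000). CP CML replicate 1 had the lowest total, WT replicate 3 had the highest summed level of monocyte, macrophage and dendritic cell markers (1613 CPM) and miR-142 KO replicate 3 had the lowest summed level of neutrophil-primed progenitor markers in its group (2866 CPM). In bulk LSKs, fewer cells of a type and less RNA per cell cannot be told apart.

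The sequences of the deleted miRNA are shown because they decide which members could pair with it by seed. The mature sequences, from RefSeq on GRCm38.p6, are those of the plus strand of chr11:87756867-87756887 (miR-142a-5p) and chr11:87756903-87756925 (miR-142a-3p), with the seed (bases 2 to 8) in capitals.
mmu-miR-142a-5p: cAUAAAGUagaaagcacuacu
mmu-miR-142a-3p: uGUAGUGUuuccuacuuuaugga
The 3′ UTRs of GENCODE M21 transcripts (GRCm38) were searched for the 7 bases complementary to each seed. A match to the 5p seed stood in 4 of 8 members (Hoxa3, Hoxb4, Meis1 and Pbx3), against 17.8% of the 12622 tested genes with a 3′ UTR, and a match to the 3p seed stood in 0 of 8 members, against 8.47% of those genes. The longest 3′ UTR had 5687 bases in Meis1 and 827 to 1635 bases in the other members. The shares over all genes were not matched for this length, so no enrichment is read from them. The 4 windows of 30 bases in members are given below in the direction of the transcript, with the match in capitals. They lie at chr6:52169589-52169618 on the minus strand for Hoxa3, chr11:96320439-96320468 on the plus strand for Hoxb4, chr11:18885208-18885237 on the minus strand for Meis1 and chr2:34172673-34172702 on the minus strand for Pbx3.
Hoxa3: aatttgttcatACTTTATggctcccgagag
Hoxb4: accctaccctcACTTTATctataaggaata
Meis1: aattgctgtaaACTTTATtacctgtcaaaa
Pbx3: aaaaagaaagcACTTTATccaattaggcca
A match is a description of letters and no evidence of a working site. Of the 4 members that hold one, Hoxa3 and Meis1 were lower in both comparisons of miR-142-deficient with miR-142+/+ LSKs, Hoxb4 was higher in BC CML than in CP CML, and Pbx3 passed the test in neither. The 250 bases before an annotated start of 7 members, all but Pbx3, were searched on both strands for the MEIS core TGACAG and the PBX-HOX letters TGATNNAT. The window of Hoxa7 (chr6:52218574-52218823) lay inside the span of its gene, as did a further window of Hoxa10 (chr6:52234940-52235189). TGACAG stood before 1 member (Hoxa3), against 18% of genes with a promoter sequence, and TGATNNAT before 0, against 8.81%.

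The 5 Hoxa members lie on the minus strand of chromosome 6 within 1 cluster, from chr6:52169062-52213067 (Hoxa3) through chr6:52201754-52204587 (Hoxa5), chr6:52215624-52220390 (Hoxa7) and chr6:52223097-52227370 (Hoxa9) to chr6:52231197-52240854 (Hoxa10), on mm10. Hoxb4 is at chr11:96318267-96321638 on the plus strand, 8.561 Mb from Mir142, and Meis1 at chr11:18880428-19018969 on the minus strand, 68.74 Mb from Mir142 on the same chromosome. Pbx3 is at chr2:34171457-34372045 on the minus strand. The span of Hoxa3 holds Hoxa4, Hoxa5 and Hoxa6, and 25.4% of its exon bases in GENCODE M21 are also exon bases of genes on the other strand. This share was 20.4% for Hoxa7 and 8.51% for Meis1, and 0 for the other 5 members. Whether counting used strand is not given in the sources used here, so reads of these genes and of their antisense partners cannot be told apart. Genes on the same strand shared 9.77% of the exon bases of Meis1, 8.01% of those of Hoxa3 and 1.52% of those of Hoxa9. Strand would not separate reads from those bases.

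Levels between genes were compared as CPM per kilobase of the gene length in the table. Meis1 and Hoxa9 were the most abundant members in all 4 groups. In WT LSKs Meis1 had 54.3 ± 6.79 CPM per kb and Hoxa9 40.6 ± 8.43 CPM per kb (SD, n = 6). Hoxa5 and Hoxa7 followed with 13.04 ± 2.15 and 11.5 ± 2.40 CPM per kb, and Hoxb4, Hoxa3 and Hoxa10 with 7.01 ± 1.34, 6.90 ± 1.44 and 5.41 ± 0.937 CPM per kb. Pbx3 was the least abundant member, with 2.02 ± 0.186 CPM per kb. Hoxa5 stood before Hoxa7 in WT, and Hoxa7 before Hoxa5 in the other 3 groups. In the HoxA cluster Hoxa9 alone held 46.2% ± 2.29 of the summed CPM per kb in WT, and between 43.0% and 45.6% on average in the other groups.

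**Figure D1:**
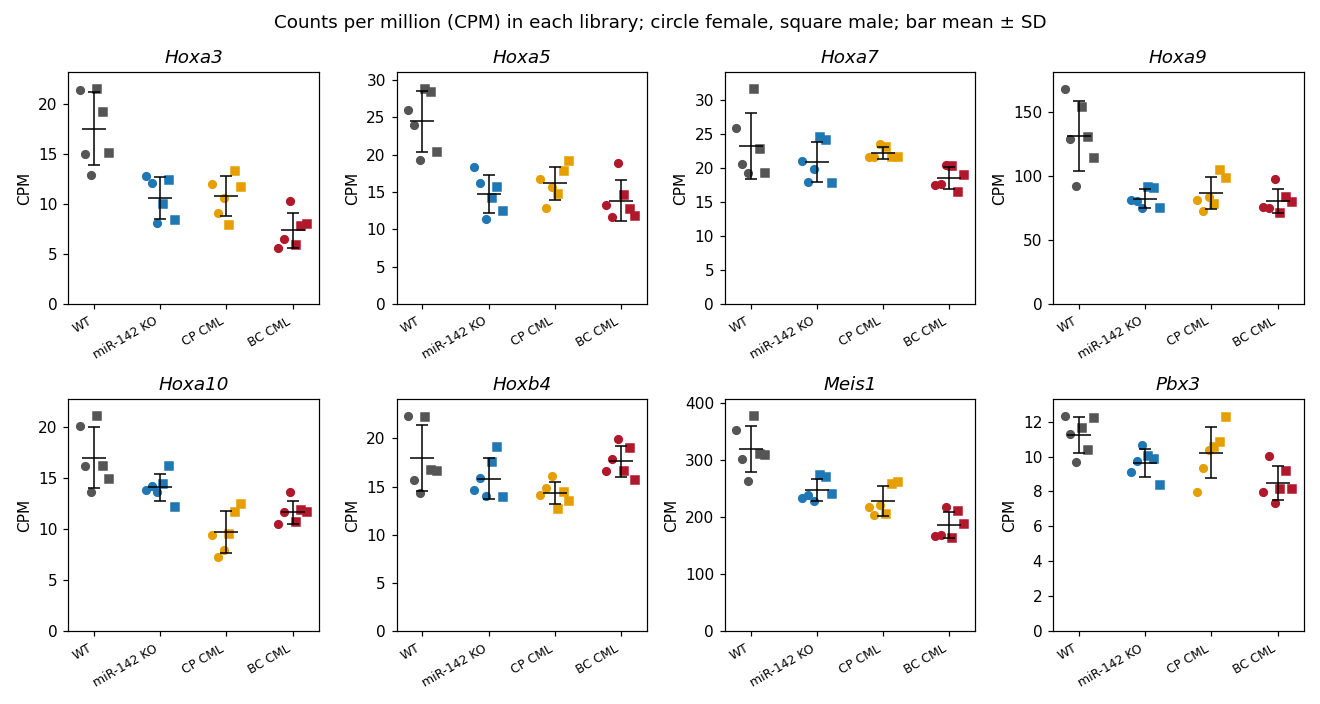
CPM (vertical axes from 0) of each member in each of the 24 libraries, by group, with circles for females, squares for males and bars for the mean ± SD of 6 mice. Hoxa9 lay between 91.8 and 168 CPM in WT and between 70.8 and 105 CPM in the other 18 libraries, and Meis1 was lowest on average in BC CML.

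The comparison of miR-142 KO with WT shows what the loss of miR-142 went with in normal LSKs. Hoxa3, Hoxa5, Hoxa9 and Meis1 fell, none of the 8 members rose, and the other 4 did not pass the test. Among all tested genes 16.4% fell and 19.9% rose (21.6% and 15.6% with upper quartile scaling), and the median log2 fold change was -0.25 over the members and 0.01 over all genes. The ranges of the groups did not overlap for 3 members (Hoxa3, Hoxa5 and Hoxa9), against 14.3% of all tested genes.

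Hoxa9, the HoxA gene most tied to stem cell expansion and leukemia, had 168, 129, 91.8, 154, 130 and 114 CPM in the 6 WT libraries. In miR-142 KO libraries it had 81.3, 80.5, 75.2, 91.5, 90.7 and 75.1 CPM. Every miR-142 KO library was below every WT library, though the highest miR-142 KO and the lowest WT value nearly met. The log2 fold change was -0.60 (SE 0.106, adjusted p = 0.0001131, edgeR quasi-likelihood test).

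Hoxa5, a homeodomain factor from the middle of the cluster, had 26.0, 23.96, 19.2, 28.8, 28.4 and 20.3 CPM in WT and 18.4, 16.2, 11.4, 14.2, 15.7 and 12.4 CPM in miR-142 KO. The groups did not overlap, and the log2 fold change was -0.66 (SE 0.127, adjusted p = 0.0002563). Hoxa3, which marks the 3′ end of the cluster, had 21.4, 15.0, 12.9, 21.5, 19.1 and 15.1 CPM in WT and 12.7, 12.1, 8.07, 9.99, 12.4 and 8.43 CPM in miR-142 KO. Its log2 fold change was -0.65 (SE 0.155, adjusted p = 0.002061), and the ranges stood apart by little.

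Meis1, the Hox cofactor, had 353, 303, 264, 377, 310 and 310 CPM in WT and 235, 239, 228, 274, 270 and 240 CPM in miR-142 KO. The ranges overlapped in that WT replicate 3 lay below the 2 highest miR-142 KO libraries. The log2 fold change was -0.30 (SE 0.0789, adjusted p = 0.004835). The call held in all 24 fits that left out 1 mouse, with adjusted p up to 0.02398. Without WT replicates 1 and 4 together, which leaves 4 WT mice, the log2 fold change was -0.21 and the adjusted p 0.05614, above the threshold; they were left out together after the data were seen, because they had the highest summed HSC markers, a value related to the members. The other 4 members had log2 fold changes from -0.20 (Hoxa10) to -0.08 (Hoxa7), with adjusted p from 0.1762 to 0.5529.

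The comparison of CP CML with WT shows what BCR-ABL went with where miR-142 was intact. Hoxa3, Hoxa5, Hoxa9, Hoxa10, Hoxb4 and Meis1 fell and none rose, while 22.9% of all tested genes fell and 22.5% rose (27.4% and 19.5% with upper quartile scaling). The median log2 fold change was -0.48 over the members and -0.02 over all tested genes, and 3 members (Hoxa5, Hoxa10 and Meis1) did not overlap, against 22.1% of all genes. This comparison and that of miR-142 KO share the WT mice.

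Hoxa10, which neighbours Hoxa9 and acts in stem cells and early myeloid cells, fell most among the members. It had 20.1, 16.2, 13.6, 21.0, 16.1 and 14.9 CPM in WT and 9.47, 7.28, 7.96, 9.49, 11.6 and 12.5 CPM in CP CML. The groups did not overlap, and the log2 fold change was -0.75 (SE 0.116, adjusted p = 2.689e-05).

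Hoxa9 had 81.6, 72.7, 84.0, 78.5, 105 and 98.6 CPM in CP CML. CP CML replicates 5 and 6 lay above the lowest WT library, and the log2 fold change was -0.54 (SE 0.106, adjusted p = 0.0003058). Meis1 had 218, 204, 221, 207, 258 and 262 CPM in CP CML, all below WT, with a log2 fold change of -0.43 (SE 0.079, adjusted p = 0.0001678). The highest CP CML value of Meis1 nearly met the lowest WT value (264 CPM).

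Hoxa5 had a log2 fold change of -0.54 (SE 0.127, adjusted p = 0.001476) and Hoxa3 one of -0.65 (SE 0.156, adjusted p = 0.001861). For Hoxa5 the highest CP CML value (19.1 CPM) nearly met the lowest WT value (19.2 CPM). Hoxb4, the HoxB gene used to expand stem cells, had 14.3 to 22.3 CPM in WT and 12.7 to 16.1 CPM in CP CML, with a log2 fold change of -0.27 (SE 0.0992, adjusted p = 0.02957). Its call was lost in 6 of the 24 fits that left out 1 mouse (WT replicates 1 and 4 and CP CML replicates 1, 4, 5 and 6), where the highest adjusted p was 0.1146, and the log2 fold change was -0.09 with an adjusted p of 0.4436 without WT replicates 1 and 4 together. Hoxa7 and Pbx3 had log2 fold changes of -0.01 and -0.08, with adjusted p of 0.9607 and 0.5272.

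**Figure D2:**
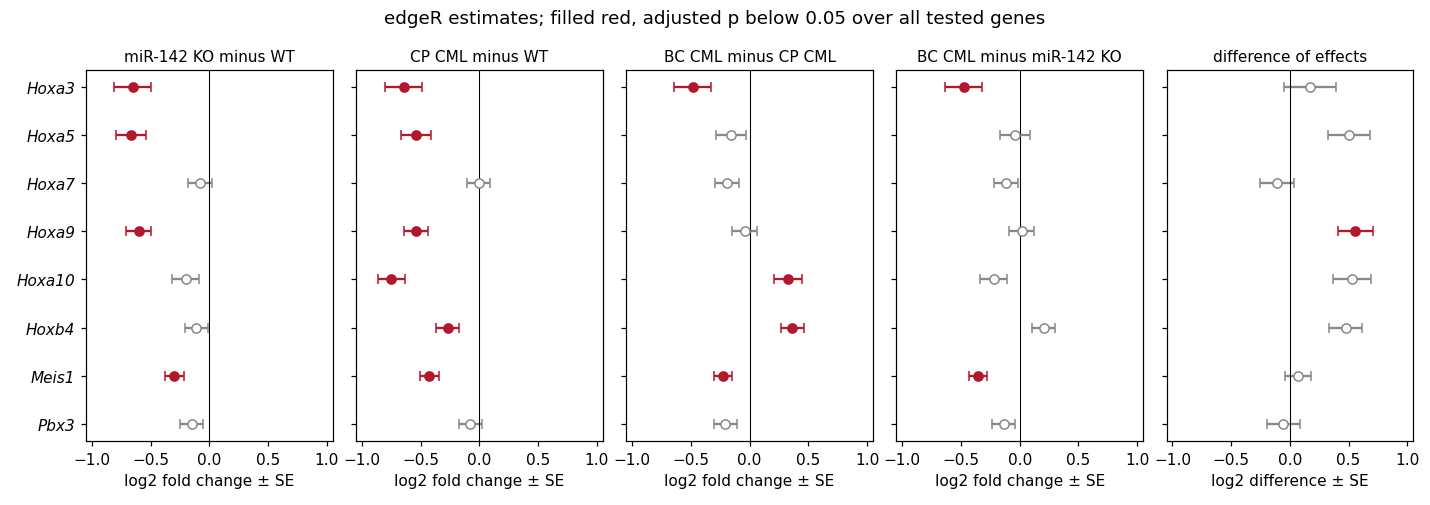
Log2 fold changes (horizontal axes, ± SE) of the 8 members in the 4 comparisons and, at the right, the difference between the effect of miR-142 loss in CML and in normal LSKs; filled red points have an adjusted p below 0.05. The 4 members called between miR-142 KO and WT and the 6 called between CP CML and WT were all lower than in WT, and 2 rose and 2 fell between CP CML and BC CML.

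The comparison of BC CML with CP CML shows what the loss of miR-142 went with in leukemic LSKs. Hoxa10 and Hoxb4 were higher and Hoxa3 and Meis1 lower in BC CML, while the other 4 members did not pass the test. Hoxa7 was also called in a fit of these 12 libraries (adjusted p = 0.01732), and Pbx3 with upper quartile scaling (adjusted p = 0.04175). Of all tested genes 20.4% were higher and 17.6% lower (16% and 21.7% with upper quartile scaling), so the members were called about as often as genes in general. Of the members only Hoxa7 did not overlap, against 21.2% of all genes.

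Hoxb4 had 14.1, 14.9, 16.1, 12.7, 14.4 and 13.6 CPM in CP CML and 16.6, 17.8, 19.9, 16.6, 19.0 and 15.7 CPM in BC CML. A single CP CML library, replicate 3, reached into the range of BC CML, and the log2 fold change was 0.36 (SE 0.0992, adjusted p = 0.005565). Hoxa10 had 10.5, 11.7, 13.6, 10.7, 11.9 and 11.6 CPM in BC CML, where CP CML replicates 5 and 6 overlapped it, and its log2 fold change was 0.33 (SE 0.116, adjusted p = 0.0295). The Hoxa10 call was lost in 8 of the 24 fits without 1 mouse (CP CML replicates 1, 2, 3 and 4 and BC CML replicates 2, 3, 5 and 6), with adjusted p up to 0.1109.

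Hoxa3 had 11.99, 9.12, 10.6, 7.87, 13.3 and 11.7 CPM in CP CML and 5.65, 6.52, 10.3, 5.91, 7.82 and 7.98 CPM in BC CML, with a log2 fold change of -0.48 (SE 0.158, adjusted p = 0.01844). BC CML replicate 3 was the highest of its group. Meis1 had 168, 170, 218, 164, 211 and 188 CPM in BC CML, with a log2 fold change of -0.23 (SE 0.079, adjusted p = 0.02565), and its call was lost in 4 of the 24 fits (CP CML replicates 5 and 6, BC CML replicates 1 and 4), with adjusted p up to 0.06158. Hoxa9 had 76.1, 75.2, 97.7, 70.8, 83.3 and 79.4 CPM in BC CML and its range overlapped that of CP CML, with a log2 fold change of -0.04 (SE 0.106, adjusted p = 0.777).

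The comparison of BC CML with miR-142 KO shows what BCR-ABL went with where miR-142 was absent. Hoxa3 and Meis1 were lower in BC CML and no member was higher, while 19.3% of all tested genes were lower and 20.3% higher (23.2% and 17.6% with upper quartile scaling). In other edgeR fits Hoxa10 was also called lower with these 12 libraries alone (adjusted p = 0.03952). Hoxb4 was called higher without WT replicates 1 and 4 together (adjusted p = 0.03925). Meis1 alone did not overlap, against 11.2% of all genes. The log2 fold change was -0.36 for Meis1 (SE 0.079, adjusted p = 0.001271) and -0.48 for Hoxa3 (SE 0.158, adjusted p = 0.01976). Without BC CML replicate 1 the adjusted p of Hoxa3 was 0.05114.

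The effect of miR-142 loss was then compared between CML and normal LSKs, as the log2 fold change of BC CML over CP CML minus that of miR-142 KO over WT. Hoxa9 alone among the members passed the test, with a difference of 0.56 (SE 0.15, adjusted p = 0.03501). Of all tested genes 1.91% had a positive and 2.08% a negative difference past the threshold. The call was lost in 17 of the 24 fits that left out 1 mouse, where the difference stayed between 0.47 and 0.61 and adjusted p ran from 0.008325 to 0.08401, and these were WT replicates 1, 2, 4 and 5, miR-142 KO replicates 1, 2, 3 and 6, CP CML replicates 1, 2, 3 and 4 and BC CML replicates 1, 2, 3, 5 and 6. It was also lost without WT replicates 1 and 4 together, where the difference was 0.39 and the adjusted p 0.1157. The differences of Hoxa10, Hoxa5 and Hoxb4 were 0.53 (SE 0.163), 0.50 (SE 0.18) and 0.48 (SE 0.14), with adjusted p of 0.06764, 0.1158 and 0.05454.

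WT replicates 1 and 4, which had the highest Hoxa9, Meis1 and Hoxb4 levels, also had the highest summed level of the 15 HSC markers, 1515 and 1622 CPM against 1002 to 1219 CPM in the other 4 WT libraries. Over the groups the summed HSC level was 1249 ± 262 CPM in WT and 960 ± 110 in CP CML, against 934 ± 178 in miR-142 KO and 730 ± 82.8 in BC CML (SD, n = 6), and none of the 15 markers was at 0 throughout a group. In the HSC list 9 of 15 genes fell and 2 rose in miR-142 KO, 11 fell and 1 rose in CP CML against WT, and 9 fell and 1 rose in BC CML against CP CML, where the members were called 2 in each direction. Over all tested genes 16.4%, 22.9% and 17.6% fell and 19.9%, 22.5% and 20.4% rose, in the same order. Procr, a surface receptor of HSCs, had log2 fold changes of -1.79 in miR-142 KO and -1.15 in BC CML against CP CML, and Hlf, a transcription factor of HSCs, of -1.26 and -1.03. Of the listed genes that rose, Ly6a, also in the sort gate list, had log2 fold changes of 1.15 and 1.09 in these comparisons. Gata2 rose by 0.56 in miR-142 KO and by 0.65 in CP CML against WT on the log2 scale. The part of HSC content in the members' levels was not tested.

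Markers of other cells also moved. Neutrophil-primed progenitor markers rose in 10 of 10 genes in miR-142 KO and 8 of 10 in CP CML against WT, with summed levels of 1390 to 5146 CPM in WT, 4794 to 8077 in CP CML, 2866 to 7991 in miR-142 KO and 6152 to 8783 in BC CML. Lymphoid-primed markers fell in 6 of 9 genes and rose in 1 in miR-142 KO, and fell in 7 and rose in 0 in CP CML against WT. Their summed levels were 2444 to 3659 CPM in WT, 1187 to 1846 in CP CML, 701 to 1431 in miR-142 KO and 708 to 1124 in BC CML. In miR-142 KO, megakaryocyte markers rose in 7 of 9 genes and mature neutrophil markers in 5 of 9, and 0 fell in either list. T or NK cell markers rose in 4 of 6 genes and fell in 1 there. Monocyte, macrophage or dendritic cell markers rose in 1 of 12 and fell in 4, and erythroid markers fell in 1 of 7 and rose in 0. The shares over all tested genes were 19.9% higher and 16.4% lower in miR-142 KO, and 22.5% and 22.9% in CP CML against WT. Mast cell or basophil markers had summed levels of 112 to 643 CPM in WT, 2069 to 4108 in CP CML, 312 to 2784 in miR-142 KO and 5662 to 11737 in BC CML. B or plasma cell markers had 75.3 to 1018 CPM in WT and 173 to 805 in CP CML, against 26.5 to 45.3 in miR-142 KO and 26.6 to 39.5 in BC CML. Their part in the members' levels was not tested.

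Females and males did not differ in any member past the threshold: 0 of 8 members passed and 0 had an unadjusted p below 0.05 in edgeR, with adjusted p from 0.3021 (Meis1) to 0.9907 (Hoxb4), while 0.651% of all tested genes were called. The edgeR likelihood ratio test and DESeq2 also called 0 members.

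Among the other 33 Hox genes, 10 were tested, while all 9 Hoxc and all 9 Hoxd genes had at most 9 counts in any library and were not tested. In miR-142 KO against WT 4 rose and 2 fell, and in BC CML against CP CML 5 rose and 1 fell. Over all tested genes 19.9% rose and 16.4% fell in the former, and 20.4% and 17.6% in the latter. Hoxb8 and Hoxb9, described below, are among those that rose in both. The filter on low counts fixed their direction, so the counts of Hox genes that rose are a description and no support. Hoxb8, a HoxB factor that blocks myeloid maturation when forced on, had 0 to 7 counts in WT and 13 to 101 in miR-142 KO, while CP CML libraries held 0 to 3 and BC CML libraries 15 to 38. The ranges did not overlap in either comparison, and its log2 fold changes were 3.19 (SE 0.536, adjusted p = 6.165e-05) and 4.13 (SE 0.648, adjusted p = 2.892e-05). Hoxb8, and Hoxb9 likewise, passed the filter on low counts only through the groups where it is high and so had to differ, and these folds and p are a description and no support.

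Hoxb5, a marker of long-term HSCs, had 18 to 46 counts in WT, 9 to 30 in CP CML, 56 to 100 in miR-142 KO and 30 to 73 in BC CML. Its log2 fold changes were 1.34 and 1.45, where here and in what follows the first of a pair of values is miR-142 KO against WT and the second BC CML against CP CML. Hoxb9 had 0 to 6, 0 to 4, 10 to 76 and 7 to 21 counts in the same order of groups, with log2 fold changes of 3.20 and 3.08. Hoxb5os, the antisense gene at Hoxb5, had log2 fold changes of 1.37 and 2.00, and without strand its reads cannot be told from those of Hoxb5. Hoxb3 rose less, with log2 fold changes of 0.23 and 0.41.

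The genes Hoxb5 to Hoxb13 held 9.86% ± 1.04 of the HoxB CPM per kb in WT and 8.62% ± 1.37 in CP CML, and 23.5% ± 6.39 in miR-142 KO and 17.9% ± 2.33 in BC CML (SD, n = 6). Hoxb4 held 53.6% ± 2.05, 59.3% ± 3.83, 41.2% ± 6.84 and 51.6% ± 1.72 in the same order. The share of Hoxb5 to Hoxb13 in miR-142 KO had a median of 20.2% and reached 34.4% in its highest library. Hoxb8 and Hoxb9 are part of that sum, so its share is a description and no support. The summed HoxA level was 87.7 ± 16.6 CPM per kb in WT and 61.8 ± 6.77 in CP CML, 59.5 ± 5.94 in miR-142 KO and 54.6 ± 5.65 in BC CML.

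**Figure D3:**
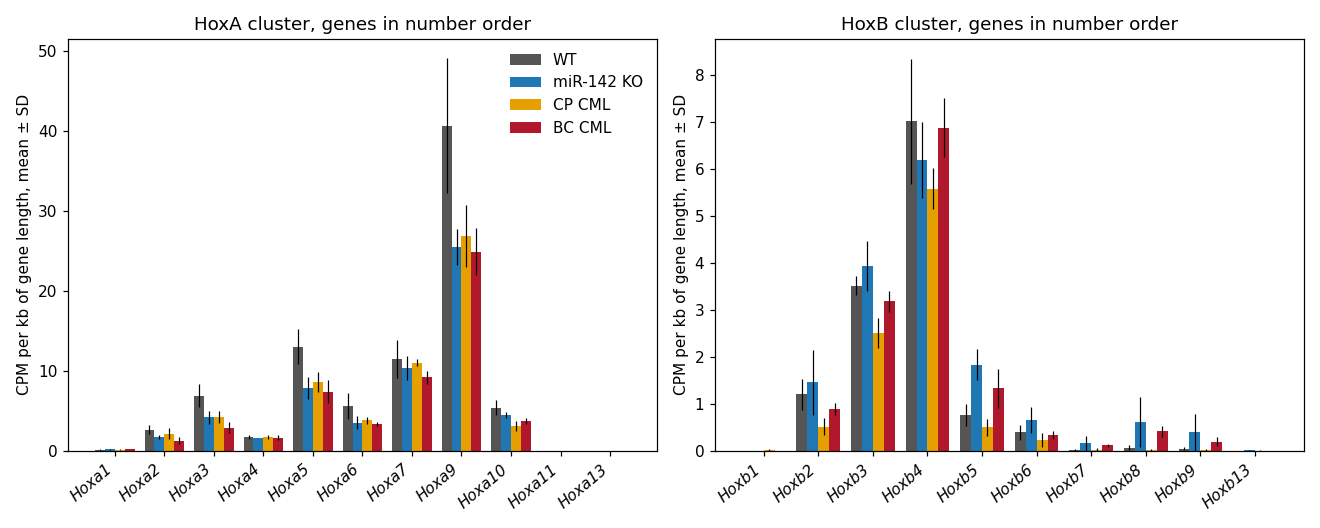
Mean CPM per kb of gene length (vertical axes, ± SD of 6 mice) of the HoxA (left) and HoxB (right) genes in number order, with 1 bar per group. Hoxa9 stands out in the HoxA cluster at 40.6 CPM per kb in WT, and Hoxb5, Hoxb8 and Hoxb9 are higher in the miR-142 KO and BC CML bars than in those of WT and CP CML. Hoxb8 and Hoxb9 passed the filter on low counts only through the groups where they are high.

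Of 8 other TALE genes listed and tested, 4 fell and 0 rose in miR-142 KO, 5 fell and 1 rose in CP CML against WT, and 2 fell and 1 rose in BC CML against CP CML. Over all tested genes 16.4%, 22.9% and 17.6% fell and 19.9%, 22.5% and 20.4% rose, in the same order. Meis2, the close relative of Meis1, had 0 to 6 counts in normal libraries, against 10 to 32 counts in CP CML libraries and 41 to 86 counts in BC CML libraries, with log2 fold changes of 3.17 in CP CML against WT (adjusted p = 3.796e-06) and 1.55 in BC CML against CP CML (adjusted p = 0.000386). Meis2 passed the filter on low counts only through the CML groups, so its fold and p against WT are a description and no support. Pbx2 fell by 0.16 in miR-142 KO, Tgif1, a TALE repressor, by 0.28 and 0.36 and its relative Tgif2 by 0.45 and 0.26 in the comparisons of miR-142 KO and BC CML.

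Of 23 tested upstream activators of Hoxa genes, 9 rose and 5 fell in miR-142 KO and 5 rose and 3 fell in BC CML against CP CML, the latter near the 20.4% and 17.6% of all tested genes. In miR-142 KO 19.9% of all tested genes rose and 16.4% fell. Ash1l, a histone methyltransferase that keeps Hoxa genes active, had log2 fold changes of 0.31 (adjusted p = 0.001548) and 0.41 (adjusted p = 0.0001138). Outside the members, matches were looked up for Ash1l alone and not for the other listed genes. A 3p match stood in 8.47% of the tested genes with a 3′ UTR, and a match is no evidence of a working site. The 3′ UTR of Ash1l held the 3p match at 2 places, given with the match in capitals, at chr3:89077901-89077930 and chr3:89078910-89078939 on the plus strand.
Ash1l, first match: taccgactgaaACACTACtcttattttctt
Ash1l, second match: agaagcaaaagACACTACgctgtcattttt
Mllt3, a member of the elongation complex that keeps HSC genes on, fell by 0.71 and 0.35, Mllt6 fell by 0.63 and 0.47, and Mllt10, a partner of Dot1l, rose by 0.24 and 0.13 on the log2 scale.

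Of 19 tested Polycomb genes, which repress Hox clusters, 6 fell and 0 rose in miR-142 KO and 7 fell and 0 rose in BC CML against CP CML. Over all tested genes 16.4% fell and 19.9% rose in miR-142 KO, and 17.6% and 20.4% in BC CML against CP CML. Cbx2, a reader of the Polycomb mark, fell by 0.85 and 0.64, Pcgf2 by 0.44 and 0.60 and Ezh1, a Polycomb methyltransferase, by 0.35 and 0.19. Cbx7 fell by 0.60 in BC CML, and Eed, a core subunit, by 0.32 in miR-142 KO.

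Of 22 genes linked to Hoxa9 and Meis1 as targets, 10 rose and 4 fell in miR-142 KO and 4 rose and 5 fell in BC CML against CP CML, the latter again near the shares of all tested genes. In miR-142 KO those shares were 19.9% higher and 16.4% lower. Flt3, a growth factor receptor of lymphoid-primed progenitors, fell by 1.24 and 1.23, Sox4, a transcription factor of progenitors, by 0.63 and 0.54, and Hif1a, a factor of low oxygen that Meis1 is known to regulate, rose by 0.44 and 0.64. In the HSC list, and not among these targets, Robo4, an HSC surface receptor, fell by 1.30 and 1.26. Meg3, an imprinted RNA of HSCs in the same list, fell by 1.56 and 2.68.

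**Figure D4:**
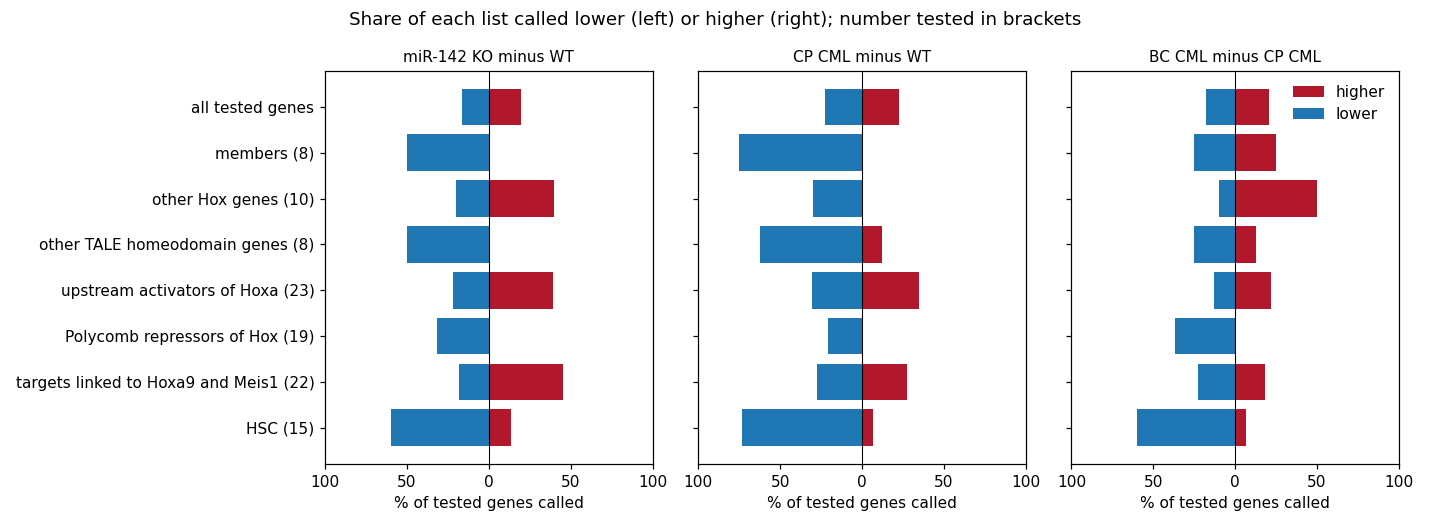
Share of the tested genes of each list called lower (left of 0) or higher (right of 0) in 3 comparisons, as a percent on the horizontal axes, with all 13520 tested genes at the top. The members were called only lower in miR-142 KO and CP CML against WT, and in both directions between CP CML and BC CML.

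Hoxa9 was compared with Meis1 over the 6 mice of each group. The Pearson r reached 0.97 in CP CML, 0.92 in WT, 0.92 in miR-142 KO and 0.91 in BC CML, and Spearman's rho was 0.94, 0.89, 0.60 and 0.94. Of the 12 relations computed (3 pairs of genes in 4 groups) with exact permutation tests over 720 pairings, the adjusted p of Pearson's r was 0.025 for Hoxa9 with Meis1 in CP CML and in BC CML and 0.03333 for Hoxa9 with Hoxa10 in WT, where r was 0.94 and rho 0.89. For Hoxa9 with Meis1 it was 0.05333 in WT and 0.05475 in miR-142 KO in the same exact tests, and neither passed. The lowest adjusted p of Spearman's rho was 0.07999 in the same exact tests. Without the 2 mice farthest from the median Hoxa9, r for Hoxa9 with Meis1 was 0.92 in CP CML, 0.85 in WT, 0.24 in miR-142 KO and 0.99 in BC CML, so the value in miR-142 KO rests on those mice.

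Hoxa9 with Hoxa10 had r of 0.87 in CP CML, 0.80 in miR-142 KO and 0.91 in BC CML, with adjusted exact p of 0.06251, 0.05475 and 0.05333, rho of 0.71, 0.89 and 0.71, and r without the 2 farthest mice of 0.47, 0.73 and 0.54. Meis1 with Pbx3 had r of 0.72 in WT, 0.63 in CP CML, 0.14 in miR-142 KO and -0.27 in BC CML and rho of 0.60, 0.71, -0.03 and -0.26, with adjusted exact p for r of 0.1389 to 0.8.

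**Figure D5:**
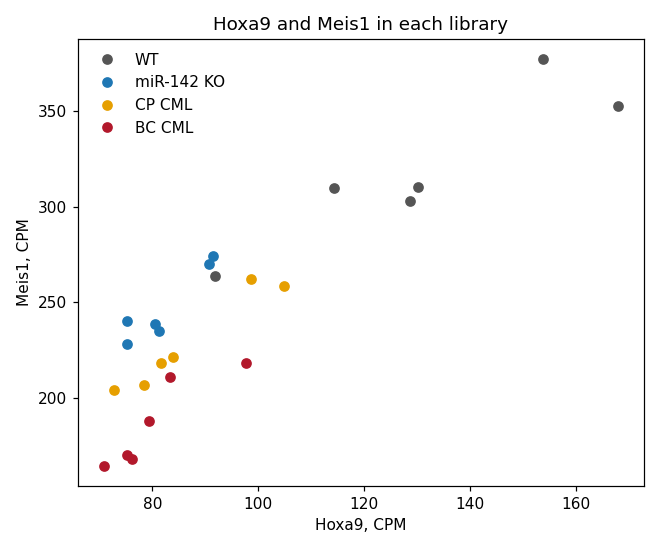
CPM of Hoxa9 (horizontal axis) against CPM of Meis1 (vertical axis) in each of the 24 libraries, coloured by group. WT libraries reach 168 CPM of Hoxa9 and 377 CPM of Meis1, and BC CML libraries lie lowest in Meis1.

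Across all 24 libraries, as a description in which the groups and the LSK gate are shared, the tested genes most like Hoxa9 were Fchsd2, Ddx4, Zfp12, Pbx2 and S100pbp, with r of 0.91 for the first and 0.90 for the last. Those most like Meis1 were Ttc3, Zmynd11, Cxxc5, Tbc1d10c and Scai, with r of 0.97 for the first and 0.96 for the last. Hoxa9 and Meis1 had r of 0.88 with each other.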

How the data were processed

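Bulk RNA-seq of LSKs from 24 mice was used, 6 in each of 4 groups. The authors deposited raw read counts per gene, with gene length, made with Trimmomatic, FASTP, STAR 2.6.0 (mm10) and HTSeq 0.11.1; the annotation and strand setting are not given in the sources used here. Differences were tested in edgeR 4.0.16 (R 4.3.3) with TMM normalization, filterByExpr by group, 1 fit of all 24 libraries, quasi-likelihood tests and Benjamini-Hochberg adjustment over 13520 genes, at a threshold of 0.05. CPM were counts scaled to a library total of 1000000. The fit was tested on simulated data: 67 of 100 genes changed by a log2 of 0.5 and 86 of 100 changed by 1 were called between BC CML and CP CML, with 9 false calls among 13204 unchanged genes. Far fewer genes were changed there than the 5137 called in this comparison of the data, so these figures need not hold for the data.

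The members and lists were chosen with earlier results of these data known. A gene of the TALE list is not reported here. Genes named beside the members were Mir142, up to 3 tested genes per list by smallest p in each comparison of miR-142 loss, and the 5 most correlated with Hoxa9 or Meis1 on log2(CPM + 0.5). Ly6a and Gata2 were named outside this rule, as genes of the HSC list that rose. Alternatives were the edgeR likelihood ratio test, DESeq2 1.42.0, other size factors and filters, sex as a covariate, fits of 12 libraries and each mouse left out. Another 2, leaving out 3 libraries or 2 WT libraries, were chosen after the data were seen.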

Additional observations from a re-analysis of the deposited data

Results flagged for a closer look

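In 33 genes over 132 groups of 6 mice, 6 single libraries stood far from the others by Dixon's test, for which chance gives about 1 in 20 groups, and 0 of the 32 groups of member values did. In miR-142 KO replicate 3 Hoxb9 was at 3.23 CPM (next highest 0.822), Hoxb5os at 2.89 CPM (next 1.99) and Flt3 at 205 CPM (next lowest 381). Cbx7 was at 57.6 CPM in WT replicate 4 (next 40.1), Eed at 117 CPM in BC CML replicate 1 (next 101), and Hif1a at 179 CPM in BC CML replicate 3 (next lowest 218).

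The effect of miR-142 loss on Hoxa9 differed between CML and normal LSKs by 0.5567 on the log2 scale, in a test of the difference itself that lost its call in 17 of 24 fits without 1 mouse.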

How the results depend on the processing

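In the comparison of the 2 effects of miR-142 loss, 1 member was called, against 2 by the likelihood ratio test (Hoxa9, Hoxb4), 3 by DESeq2 (with Hoxa10), 0 to 3 without 1 mouse and 0 without WT replicates 1 and 4. Both sets of libraries left out together were chosen after the data were seen: WT replicate 3, miR-142 KO replicate 3 and CP CML replicate 1 for their marker sums, few detected genes or low total, and WT replicates 1 and 4 for their high HSC marker sums, which are related to the members, so the latter is no neutral choice. Member counts without 1 mouse ran from 3 to 5 (BC CML against CP CML), 4 to 4 (miR-142 KO against WT), 5 to 6 (CP CML against WT) and 1 to 2 (BC CML against miR-142 KO). Hoxa10 in BC CML against CP CML lost its call with upper quartile scaling (adjusted p = 0.06752), in a fit of those 12 libraries (0.05181) and without the 3 libraries (0.05788), where Pbx3 was called (0.01311). Hoxb4 in CP CML against WT lost its call in a fit of 12 libraries (0.05802). Upper quartile scaling moved the share of calls that were higher from 53.7 to 42.4% in BC CML against CP CML and from 54.7 to 42% in miR-142 KO against WT. For the 2 effects that share was 47.9%, against 37.8% with at least 1 CPM in 6 libraries and 32% without the 3 libraries, where 990 genes were called instead of 539 (891 by DESeq2, 375 to 787 without 1 mouse). Between the sexes 88 genes were called, against 233 by the likelihood ratio test, 372 by DESeq2, 52 without the 3 libraries and 50 to 250 without 1 mouse. The cause was not tested.

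The fold changes that turned sign were of uncalled members. Without 1 mouse, Hoxa7 ran from -0.131 to 0.0264 in miR-142 KO and from -0.0558 to 0.106 in CP CML against WT, Hoxa5 from -0.156 to 0.025 and Hoxa9 from -0.0561 to 0.0422 in BC CML against miR-142 KO, Meis1 from -0.00382 to 0.0946 for the 2 effects, and, between females and males, Hoxa3 from -0.0761 to 0.0239, Hoxa5 from -0.0662 to 0.0201 and Hoxb4 from -0.0347 to 0.0315. With upper quartile scaling Hoxa9 was -0.0181 in BC CML against miR-142 KO and Hoxb4 -0.00538 between the sexes, and with at least 1 CPM in 6 libraries Hoxa7 was 0.00415 in CP CML against WT. Without the 3 libraries Hoxa9 was -0.0101 in BC CML against miR-142 KO, and Hoxa3 0.0434 and Hoxa5 0.0492 between the sexes. Without WT replicates 1 and 4 Hoxa7 was 0.0812 and Hoxb4 0.0536 in miR-142 KO, Hoxa7 0.172 in CP CML against WT, Hoxa3 -0.000259 and Meis1 -0.0339 for the 2 effects, and Hoxa5 0.00319 and Hoxb4 -0.000953 between the sexes. Without the 2 farthest mice r of Meis1 with Pbx3 went from 0.14 to -0.817 in miR-142 KO and from 0.63 to -0.195 in CP CML. No paired analysis was possible because the labels give the groups no shared replicate numbers.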
